A study of Rattus norvegicus with 10 samples.

Results

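Solute carriers are membrane proteins that move small molecules such as amino acids, sugars, hormones, metals and vitamins across membranes. In the choroid plexus, the epithelial tissue that lies in the brain ventricles and secretes cerebrospinal fluid (CSF), carriers on the blood-facing and CSF-facing membranes set which nutrients enter the CSF and which waste compounds leave it. The genes described here are the named solute carrier genes other than the mitochondrial carriers of the SLC25 family and 5 ion cotransporters, and they were taken by name. A total of 27 genes met this rule, out of 41 symbols starting with SLC among 2015 named identifiers and 32883 genes listed. All 27 passed the filter on low values.

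Choroid plexus from the lateral ventricles and the fourth ventricle was taken from 10 female Wistar rats aged 27 weeks, 5 fed a nutrient source-matched control diet and 5 fed a high-fat diet (HFD), with 1 RNA sequencing library per rat and no pooling. After feeding, the rats to be sequenced were selected by body weight, lighter ones among the control-fed and heavier ones among the HFD-fed animals, so diet and body weight cannot be told apart. Values are TPM, a length-corrected share of the transcripts of a library, so that genes can be compared in level. A share carries no read number, so the depth of each library is unknown. Each rat's TPM were divided by a scaling factor, the median over genes of its ratio to the geometric mean of the 10 rats, and the result is called rescaled TPM. Differences between diets are log2 differences of rescaled TPM + 0.1, HFD minus control, which understate the change of genes with low values. In whole tissue, fewer cells of a type and less RNA per cell cannot be told apart.

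One library stood apart from the rest. Control rat 1 had a scaling factor of 0.747, against 0.944 to 1.13 in the other 9 rats. Of 12198 genes, 1842 differed more than 2-fold between this rat and the others' median, and in each other rat 171 to 235 did. The main results are also given without this rat. Epithelial marker genes were expressed in every rat, and all 10 on the list were named. The most abundant, transthyretin (TTR, the thyroxine carrier of the CSF), had a level of 287800 to 532200 rescaled TPM. The markers TTR, FOLR1 and CLIC6 were highest in control rat 1, and HTR2C lay within the range of the other rats. KCNJ13, AQP1, KL, PRLR, OTX2 and SOSTDC1 were lowest in control rat 1. The level of KCNJ13 was 509.8 rescaled TPM there and 684.8 to 875.6 in the other 9 rats.

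The 27 genes fall into 7 substrate classes and a pair without one. There were 3 for amino acids, 3 for sugars, 6 for organic anions and hormones, 2 for organic cations and other ligands, 3 for inorganic anions, 5 for metals and heme, and 3 for vitamins. By what is known of the proteins, 20 of the 27 were placed at the plasma membrane. Not all of these are carriers themselves, since SLC22A17 is known as a receptor and SLC3A2 as the heavy chain of amino acid exchangers. SLC39A7 lies in the endoplasmic reticulum, SLC35A1 in the Golgi, SLC48A1 in endosomes and lysosomes, and SLC30A9 and SLC66A2 also act inside the cell. SLC16A13 was not assigned, and SLC9A3R1 is no carrier but the scaffold protein NHERF1, whose symbol recalls the exchanger it binds.

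The 27 genes spanned a 31.3-fold range of mean level. Summed over the 27 genes the level was 4251 rescaled TPM in control rats and 4054 in HFD-fed rats, and their share of all TPM was 0.353% to 0.441% in control rats and 0.382% to 0.482% in HFD-fed rats. SLC22A17, a receptor for the iron-binding protein lipocalin-2, alone held 31.8% of the summed level, and only 51 of the tested genes had a higher mean. The copper importer SLC31A1 followed, and these were the only 2 members over 300 rescaled TPM. Another 9 had a mean level of 100 to 300 and 16 were under 100, the lowest being SLC29A4.

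**Figure D1:**
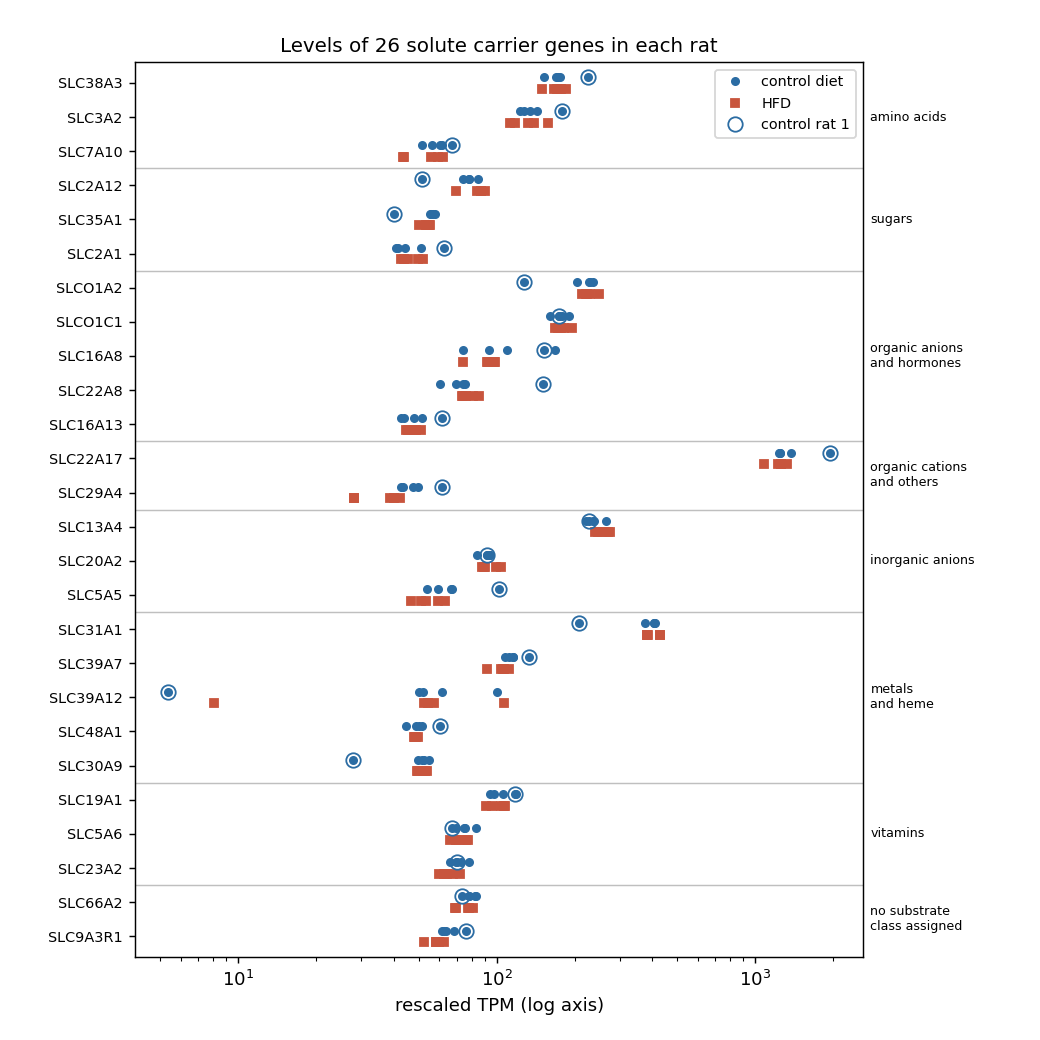
Level of 26 of the 27 solute carrier genes in rescaled TPM (log axis), grouped by substrate class, with 1 mark per rat (circles control, squares HFD) and control rat 1 ringed. SLC22A17 runs from 1083 to 1947, and SLC39A12 has 2 rats far below the other 8.

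No solute carrier differed between the diets after adjustment for the number of genes. By limma with Benjamini-Hochberg adjustment over 12198 genes, 0 of the 27 passed an adjusted p of 0.05, beside 0.0% of all genes tested, and the lowest adjusted p among them was 0.542. Without adjustment, 2 of 27 had a p under 0.05, SLC29A4 and SLC9A3R1, beside a background of 8.59% of all genes. Both were lower in HFD-fed rats, beside 4.83% of all genes lower and 3.76% higher at this p. This background split turned with the scaling, since 1.26% were lower and 3.85% higher in TPM as deposited, and 3.39% lower and 5.07% higher with upper-quartile rescaling. The same count was 4 without control rat 3, beside 8.74% of all genes, and 1 without control rat 4, beside 7.48%. The upward count, 0 with all rats, was 1 without control rat 2, beside 3.87%. Leaving out control rat 3 added SLC16A8 and SLC5A5, leaving out control rat 4 removed SLC9A3R1, and the one upward gene was SLC13A4. The count was 2 without control rat 1, beside a background of 11.7%, and 1 with TPM as deposited, beside 5.11%. A replicate block gave 2, SLC29A4 (lower) and SLC2A12 (higher), beside 9.35%, while SLC9A3R1 then had an unadjusted p of 0.0597 by limma. Array weights gave 4, beside 15.4%. The diets did not overlap for 1 member, SLC29A4, beside 3.42% of all genes in either direction and 2.02% lower on HFD. The median log2 difference was -0.062 over the 27 and 0.013 over all genes, with 10 members above 0 and 17 below, beside 52.7% of all genes above 0. Without control rat 1 the median over the 27 was -0.022. In TPM as deposited the median was 0.041, beside 0.12 over all genes, and 19 members were above 0, beside 73.0% of all genes, so the sign of small differences depended on the scaling. The 95% interval of the difference included 0 for 25 members, and for 19 it lay within 0.5 on the log2 scale on either side of 0.

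**Figure D2:**
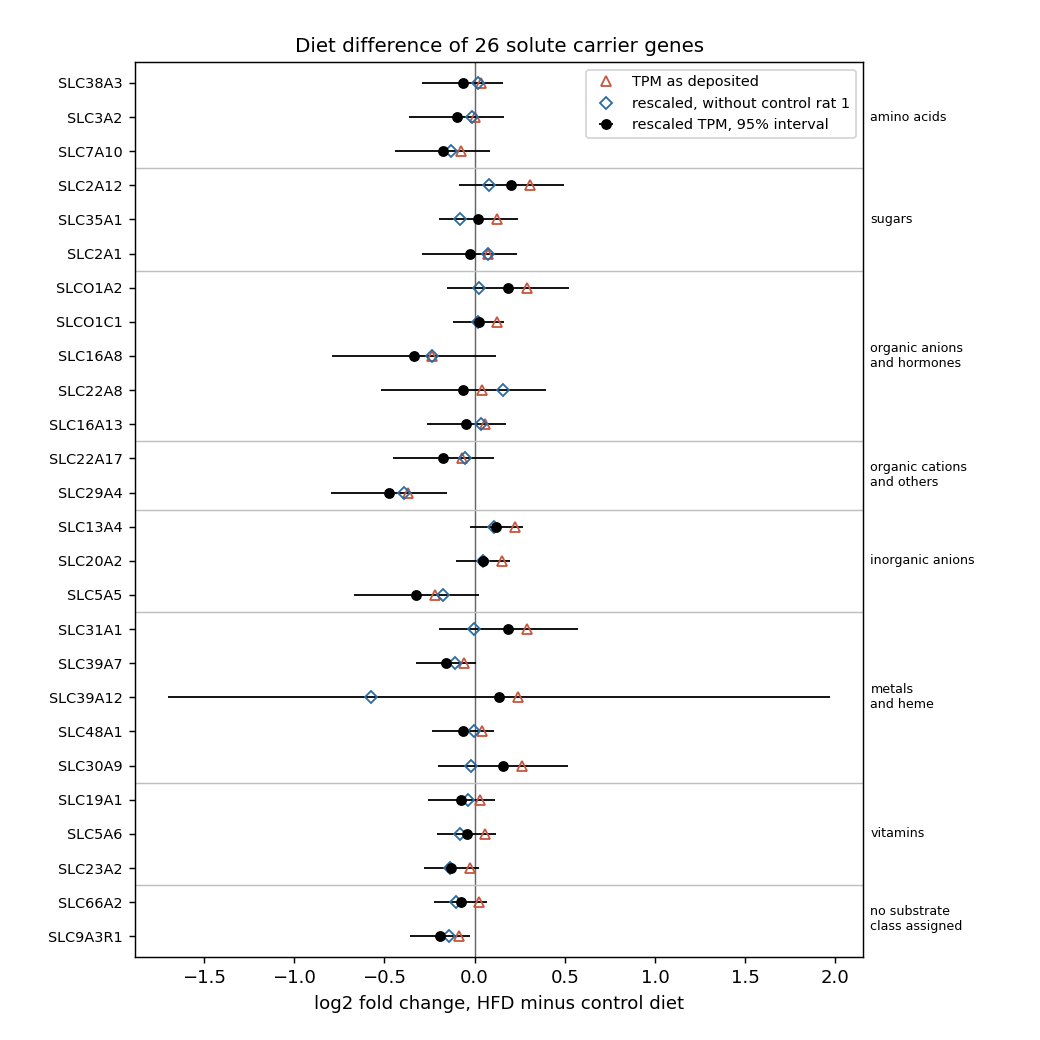
Log2 difference in rescaled TPM (HFD minus control, n = 5 rats each) of 26 of the 27 genes with 95% intervals from limma, with the difference in TPM as deposited and without control rat 1 as further marks. The intervals of SLC29A4 and SLC9A3R1 lie below 0, and the very wide interval of SLC39A12 runs from -1.70 to 1.97.

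SLC29A4 (ENSRNOG00000001115) encodes the plasma membrane monoamine transporter, which carries serotonin, dopamine and other organic cations. Its level was 61.4, 47.5, 49.5, 43.5 and 42.6 rescaled TPM in control rats 1 to 5, and 40.0, 38.6, 42.3, 28.1 and 28.1 in HFD-fed rats 1 to 5. No HFD-fed rat reached the lowest control rat, but the highest HFD-fed rat and the lowest control rat lay close together, and 2 HFD-fed rats were well below the rest. The mean was 35.4 ± 6.83 (SD, n = 5) in HFD-fed rats vs 48.9 ± 7.54 (SD, n = 5) in control rats, a log2 difference of -0.47 with a standard error of 0.15 (exact permutation test, two-sided, p = 0.00794, the smallest that 5 rats against 5 allow). The unadjusted p by limma was 0.00785 and the adjusted p 0.542. The direction held in each of 22 alternatives, with log2 differences of -0.54 to -0.34, unadjusted p of 0.00114 to 0.021 and adjusted p of 0.214 to 0.723 by limma. In TPM as deposited the levels were 30.8 to 43.2 in HFD-fed rats and 43.4 to 51.8 in control rats, again without overlap, beside 1.65% of all genes on that scale, and without control rat 1 the log2 difference was -0.39.

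SLC22A17 (ENSRNOG00000016414) belongs by sequence to the organic cation transporter family, although it is known as a lipocalin-2 receptor. Its level was 1947, 1374, 1248, 1244 and 1233 rescaled TPM in control rats and 1222, 1262, 1262, 1083 and 1329 in HFD-fed rats. Control rat 1 was far above the other 9 rats, which overlapped between the diets. The log2 difference was -0.17 with a standard error of 0.13 (exact permutation test, two-sided, p = 0.254). Without control rat 1 it was -0.053, and in TPM as deposited -0.071.

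The promoters of 20 of the 27 genes were matched by symbol in RefSeq. They are windows of 300 bases, from 250 before to 50 after the gene start, in the GRCr8 build, whereas the TPM were made on Rnor_6.0. The promoters of SLC29A4 (chr12:16988289-16988588, minus strand) and of SLC39A12 (chr17:82262107-82262406, plus strand) are printed because the first gene was the member whose diets did not overlap and the second the member with the widest spread between rats. Capitals mark matches on either strand to the GC box letters GGGCGG, the TATA box letters TATAAA wherever they stand in the window, and TAATCC, the core letters bound by OTX2-type homeodomain factors. No match overlaps another.
SLC29A4: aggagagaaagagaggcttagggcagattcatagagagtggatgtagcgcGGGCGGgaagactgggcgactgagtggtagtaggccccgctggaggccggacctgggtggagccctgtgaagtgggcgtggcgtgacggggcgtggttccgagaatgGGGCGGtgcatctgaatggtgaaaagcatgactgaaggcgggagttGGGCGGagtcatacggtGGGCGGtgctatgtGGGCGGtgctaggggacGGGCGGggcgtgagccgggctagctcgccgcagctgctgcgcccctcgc
SLC39A12: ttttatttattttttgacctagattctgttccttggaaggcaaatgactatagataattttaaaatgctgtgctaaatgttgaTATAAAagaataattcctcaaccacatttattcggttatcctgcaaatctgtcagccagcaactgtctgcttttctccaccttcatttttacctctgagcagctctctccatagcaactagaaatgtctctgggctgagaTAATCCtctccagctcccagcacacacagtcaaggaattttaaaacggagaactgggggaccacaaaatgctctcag
The SLC29A4 window holds 25 CpG dinucleotides, has 65.7% G and C and holds 6 GC box matches. The SLC39A12 window holds 2 CpG, has 39.3% G and C and holds 1 match each to TATAAA and TAATCC. These start at bases 84 and 224 of the window, in which 250 bases lie before the gene start. GC box letters stood in 15 of the 20 matched members, beside 36.0% of 27457 promoters, TATAAA in 3 of 20, beside 15.3%, and TAATCC in 1 of 20, SLC39A12, beside 7.77%. The 27457 promoters were not chosen by expression, whereas the members are well expressed genes, so these shares compare unlike sets. They do not show a trait of the carriers. These matches describe the letters of the windows and do not locate a bound factor.

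The metal carriers held the most variable member. SLC39A12 (ENSRNOG00000025639), a zinc importer, was singled out after its values were seen. Its level was 5.37, 61.7, 100.3, 51.9 and 49.9 rescaled TPM in control rats and 54.1, 57.1, 52.4, 8.06 and 106.5 in HFD-fed rats. One rat of each diet was low and one of each diet was high, so that the diets overlapped fully. Control rat 1 was 10.4-fold and HFD-fed rat 4 was 6.90-fold below the median of the other 8 rats, 55.6. The spread within a diet was 1.52 on the log2 scale, and 1.4% of genes tested had a larger one. The log2 difference of 0.14 had a standard error of 0.83, and without control rat 1 it was -0.57, so a difference between the diets was not detectable against this spread.

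SLC31A1 (ENSRNOG00000014475), the high-affinity copper importer CTR1, had a level of 207.9, 407.4, 375.9, 407.2 and 410.3 rescaled TPM in control rats. In HFD-fed rats its level was 384.1, 427.7, 382.0, 426.6 and 380.9. Control rat 1 was low and the other 9 rats overlapped closely. The log2 difference of 0.19 had a standard error of 0.17 (exact permutation test, two-sided, p = 0.571), and without control rat 1 it was -0.002.

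SLC39A7 (ENSRNOG00000000465), which releases zinc from the endoplasmic reticulum, had a level of 133.1, 111.1, 115.3, 115.2 and 107.3 rescaled TPM in control rats and 106.2, 111.6, 104.1, 92.0 and 107.1 in HFD-fed rats. HFD-fed rat 2 overlapped the control rats. The log2 difference was -0.16 with a standard error of 0.075, and the tests fell on either side of 0.05 (exact permutation test, two-sided, p = 0.0317, and unadjusted p = 0.0599 by limma). In TPM as deposited it was -0.056. The heme transporter SLC48A1 was the steadiest of the class in HFD-fed rats, at 48.6 ± 0.627 rescaled TPM vs 51.1 ± 5.91 in control rats (SD, n = 5 each). This depended on the scaling, since in TPM as deposited SLC48A1 had 50.6 ± 4.61 in HFD-fed rats vs 49.1 ± 3.13 in control rats. SLC30A9, a zinc transporter of mitochondria, was 27.9 in control rat 1 and 49.1 to 54.9 in the other rats. The median log2 difference of the 5 metal and heme genes was 0.14 with all rats and -0.022 without control rat 1.

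**Figure D3:**
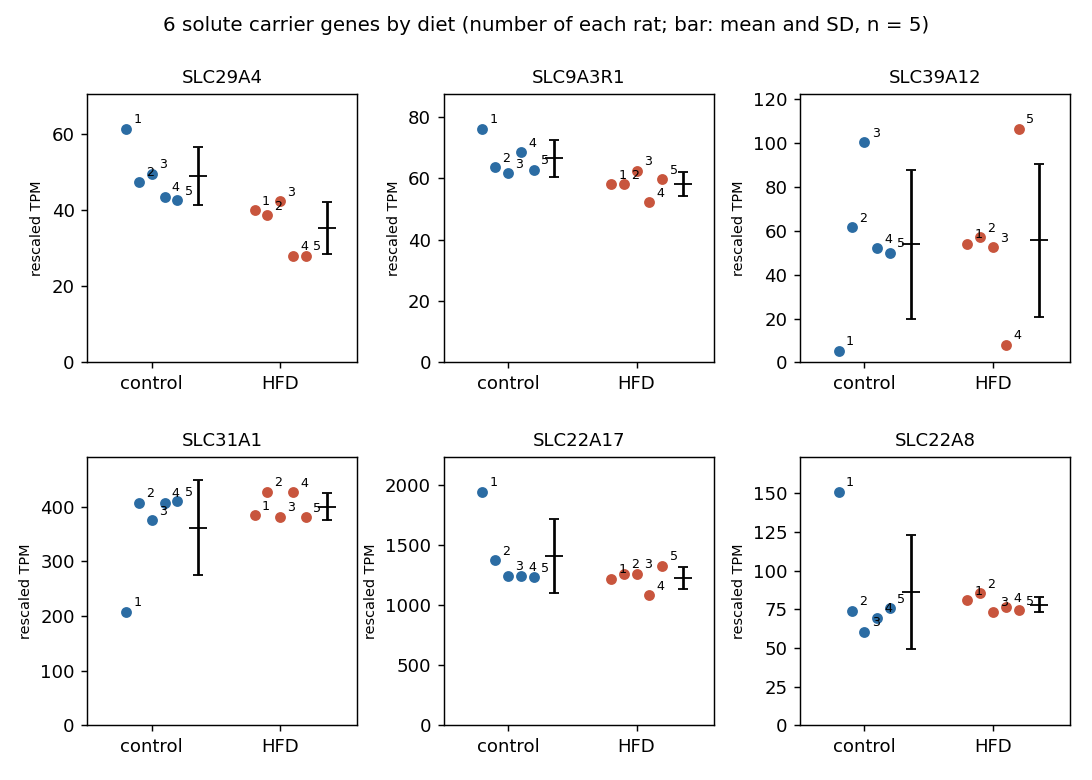
Rescaled TPM of 6 solute carrier genes in each rat by diet, with the mean and SD of each diet (n = 5). The diets are separate for SLC29A4 alone, control rat 1 lies apart for SLC31A1, SLC22A17 and SLC22A8, and SLC39A12 has 1 very low rat in each diet.

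None of the amino acid carriers had an unadjusted p under 0.05. SLC38A3 (ENSRNOG00000016827), the sodium-coupled glutamine transporter SNAT3, was the most abundant, with a level of 225.7, 171.9, 152.7, 170.2 and 176.4 rescaled TPM in control rats and 171.6, 166.8, 150.0, 178.0 and 185.0 in HFD-fed rats. The diets overlapped apart from a high control rat 1. Its log2 difference was -0.066 with a 95% interval of -0.29 to 0.16 (exact permutation test, two-sided, p = 0.619), and 0.038 in TPM as deposited. SLC3A2, the heavy chain that brings several amino acid exchangers to the membrane, had 132 ± 18.1 vs 142 ± 22.0 rescaled TPM, and its partner SLC7A10, an exchanger of small neutral amino acids including D-serine, had 52.8 ± 8.70 vs 59.3 ± 5.93 (HFD vs control, SD, n = 5 each). The limma p of these genes, unadjusted, were 0.425 and 0.164.

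Among the sugar carriers, SLC2A12 (ENSRNOG00000011161), the glucose transporter GLUT12, had the highest level. With all rats it also had the largest upward log2 difference of the 27 genes, at 0.20 with a standard error of 0.13. Its level was 51.3, 84.6, 74.3, 78.3 and 78.5 rescaled TPM in control rats and 69.5, 90.2, 87.2, 84.2 and 87.2 in HFD-fed rats. In 4 of 5 HFD-fed rats the level was above that of 4 of 5 control rats, while control rat 1 and HFD-fed rat 1 lay below the rest of their groups. The exact permutation test, two-sided, gave p = 0.183. Without control rat 1 the log2 difference was 0.078, below those of SLC22A8 (0.159) and SLC13A4 (0.105). SLC2A1, the glucose transporter GLUT1, had 46.7 ± 3.88 vs 48.1 ± 9.09, and SLC35A1, which carries CMP-sialic acid into the Golgi, 53.4 ± 2.05 vs 53.1 ± 7.38 rescaled TPM (HFD vs control, SD, n = 5 each). For these genes the diets differed by less than the spread between rats.

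The carriers of organic anions and hormones included the steadiest member of all. SLCO1C1, an organic anion transporter for thyroxine, had 179 ± 10.4 vs 176 ± 10.4 rescaled TPM (HFD vs control, SD, n = 5 each), and its spread within a diet, 0.084 on the log2 scale, was the smallest of the 27. The 95% interval of its log2 difference ran from -0.12 to 0.16.

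SLCO1A2 (ENSRNOG00000031249), which carries bile salts and steroid conjugates, was the most abundant of this class. Its level was 127.6, 235.2, 204.1, 228.4 and 228.8 rescaled TPM in control rats and 214.5, 249.6, 222.1, 230.5 and 222.7 in HFD-fed rats. Control rat 1 alone was low, and the other 9 rats overlapped. Its log2 difference was 0.19 with all rats (exact permutation test, two-sided, p = 0.349) and 0.023 without control rat 1.

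SLC16A8 (ENSRNOG00000012090), the lactate carrier MCT3, varied more among control rats than among HFD-fed rats. Its level was 152.5, 168.6, 74.1, 93.0 and 110.0 rescaled TPM in control rats and 91.7, 92.2, 98.4, 97.8 and 74.4 in HFD-fed rats. Control rats 1, 2 and 5 were above all HFD-fed rats, control rat 3 was just below the lowest of them and control rat 4 lay among them. SLC16A8 had a log2 difference of -0.34 with a standard error of 0.21 (exact permutation test, two-sided, p = 0.206). Single control rats moved it, to -0.20 without control rat 2 and to -0.49 without control rat 3, where the unadjusted p by limma was 0.0174. SLC22A8, the organic anion transporter OAT3 that clears drugs and metabolites from the CSF, was singled out after its values were seen. It had 151 rescaled TPM in control rat 1, 60.4 to 75.7 in control rats 2 to 5 and 73.5 to 85.5 in HFD-fed rats. Its log2 difference was -0.062 with all rats, and 0.16 without control rat 1 (unadjusted p = 0.0586 by limma). SLC16A13, a member of the monocarboxylate transporter family, had 47.5 ± 2.71 vs 49.5 ± 7.61 rescaled TPM (HFD vs control, SD, n = 5 each).

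Of the inorganic anion carriers, SLC13A4 (ENSRNOG00000011184), a sodium-coupled sulfate transporter, was the most abundant. Its level was 226.6, 264.0, 220.6, 235.0 and 236.8 rescaled TPM in control rats and 245.7, 274.4, 256.4, 239.1 and 270.5 in HFD-fed rats. All HFD-fed rats were above 4 of the 5 control rats, and control rat 2 lay among them. HFD minus control was 0.12 on the log2 scale with a standard error of 0.067 (exact permutation test, two-sided, p = 0.0714), 0.11 without control rat 1 and 0.23 in TPM as deposited.

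SLC5A5 (ENSRNOG00000018822), the sodium iodide symporter, had a level of 101.9, 59.2, 53.6, 66.6 and 67.0 rescaled TPM in control rats and 46.8, 53.2, 59.3, 50.8 and 62.9 in HFD-fed rats. Control rat 1 was high and the other control rats overlapped the HFD-fed rats. The log2 difference was -0.32 with a standard error of 0.16 (exact permutation test, two-sided, p = 0.0794), and -0.18 without control rat 1. The phosphate carrier SLC20A2 had 94.2 ± 7.15 vs 91.1 ± 4.34 rescaled TPM (HFD vs control, SD, n = 5 each), a difference within the spread between rats.

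The vitamin carriers had spreads within a diet of 0.097 to 0.13 on the log2 scale, below that of the median gene. SLC19A1 (ENSRNOG00000001232), the reduced folate carrier, had a level of 117.7, 118.7, 97.4, 105.6 and 94.5 rescaled TPM in control rats and 107.0, 103.7, 96.0, 91.1 and 108.0 in HFD-fed rats. The diets overlapped widely, and the log2 difference was -0.074 (exact permutation test, two-sided, p = 0.365). Without control rat 1 it was -0.039, and the fits that left out 1 rat gave -0.117 to -0.036. SLC23A2 (ENSRNOG00000021262), which brings ascorbate into the epithelium, had a level of 70.0, 69.4, 73.0, 66.1 and 77.8 rescaled TPM in control rats and 67.7, 64.4, 59.7, 72.0 and 62.3 in HFD-fed rats. HFD-fed rats 1 and 4 overlapped the control rats, and the other 3 were below all of them. For SLC23A2 the log2 difference was -0.13 with a standard error of 0.07 (exact permutation test, two-sided, p = 0.0873), and -0.025 with TPM as deposited. SLC5A6, the sodium-coupled carrier of biotin and pantothenate, had 72.0 ± 4.71 vs 74.3 ± 6.23 rescaled TPM (HFD vs control, SD, n = 5 each).

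SLC9A3R1 (ENSRNOG00000003232), the NHERF1 scaffold that ties transporters to ezrin under the apical membrane, was the second gene with an unadjusted p under 0.05. Its level was 76.1, 63.6, 61.6, 68.5 and 62.7 rescaled TPM in control rats and 58.1, 58.1, 62.5, 52.2 and 59.7 in HFD-fed rats. HFD-fed rat 3 lay above control rat 3, and the other HFD-fed rats were below all control rats. SLC9A3R1 had a log2 difference of -0.19 with a standard error of 0.076 (exact permutation test, two-sided, p = 0.0159, and adjusted p = 0.557 by limma). It was below 0 in each of 22 alternatives, -0.22 to -0.089, and had an unadjusted p under 0.05 in 16 of them. In TPM as deposited it was -0.089, with an unadjusted p of 0.323 by limma. SLC66A2 (ENSRNOG00000059215), the other gene without a substrate class, had 75.0 ± 5.49 vs 79.0 ± 3.80 rescaled TPM (HFD vs control, SD, n = 5 each). Its single values were 73.5, 82.1, 78.3, 78.2 and 83.1 rescaled TPM in control rats and 68.7, 81.1, 77.8, 69.7 and 77.7 in HFD-fed rats, which overlapped.

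Across the classes, the median log2 difference was -0.099 for amino acid carriers, 0.02 for sugar carriers, -0.012 for organic anion and hormone carriers, -0.32 for the pair of organic cation family members, 0.047 for inorganic anion carriers and -0.074 for vitamin carriers. The medians of the amino acid, organic anion and vitamin classes were 0.004, 0.091 and 0.029 in TPM as deposited, so that the organic cation class alone of these kept a median below 0. Without control rat 1 the medians were -0.014 for amino acid carriers, 0.072 for sugar carriers, 0.028 for organic anion and hormone carriers, -0.22 for the organic cation family, 0.049 for inorganic anion carriers and -0.08 for vitamin carriers. Other single rats moved these small medians too. The fits that left out 1 rat gave 0.009 (without HFD-fed rat 5) to 0.071 for inorganic anion carriers, -0.11 to -0.036 (without control rat 2) for vitamin carriers and 0.009 (without HFD-fed rat 3) to 0.072 for sugar carriers. They gave -0.17 (without HFD-fed rat 5) to -0.014 for amino acid carriers, -0.034 to 0.028 for organic anion and hormone carriers, and -0.071 (without HFD-fed rat 5) to 0.22 for metal and heme carriers. The organic cation class holds SLC29A4 and SLC22A17 only.

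The spread between rats was mostly small, and control rat 1 was the rat that most often lay far from the others. The median spread within a diet was 0.17 on the log2 scale over the 27 genes, beside 0.22 over all genes tested. Control rat 1 lay over 1.5-fold away from the others' median for 9 of 27 members, 4 higher and 5 lower. The higher ones were SLC22A17, SLC16A8, SLC22A8 and SLC5A5, and the lower ones SLC31A1, SLCO1A2, SLC2A12, SLC30A9 and SLC39A12. HFD-fed rats 4 and 5 lay that far out for 2 members each, SLC39A12 and SLC29A4, control rats 2 and 3 for 1 each, and the other 5 rats for none. Leaving out control rat 1 changed the sign of the log2 difference for 8 of the 27 genes.

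**Figure D4:**
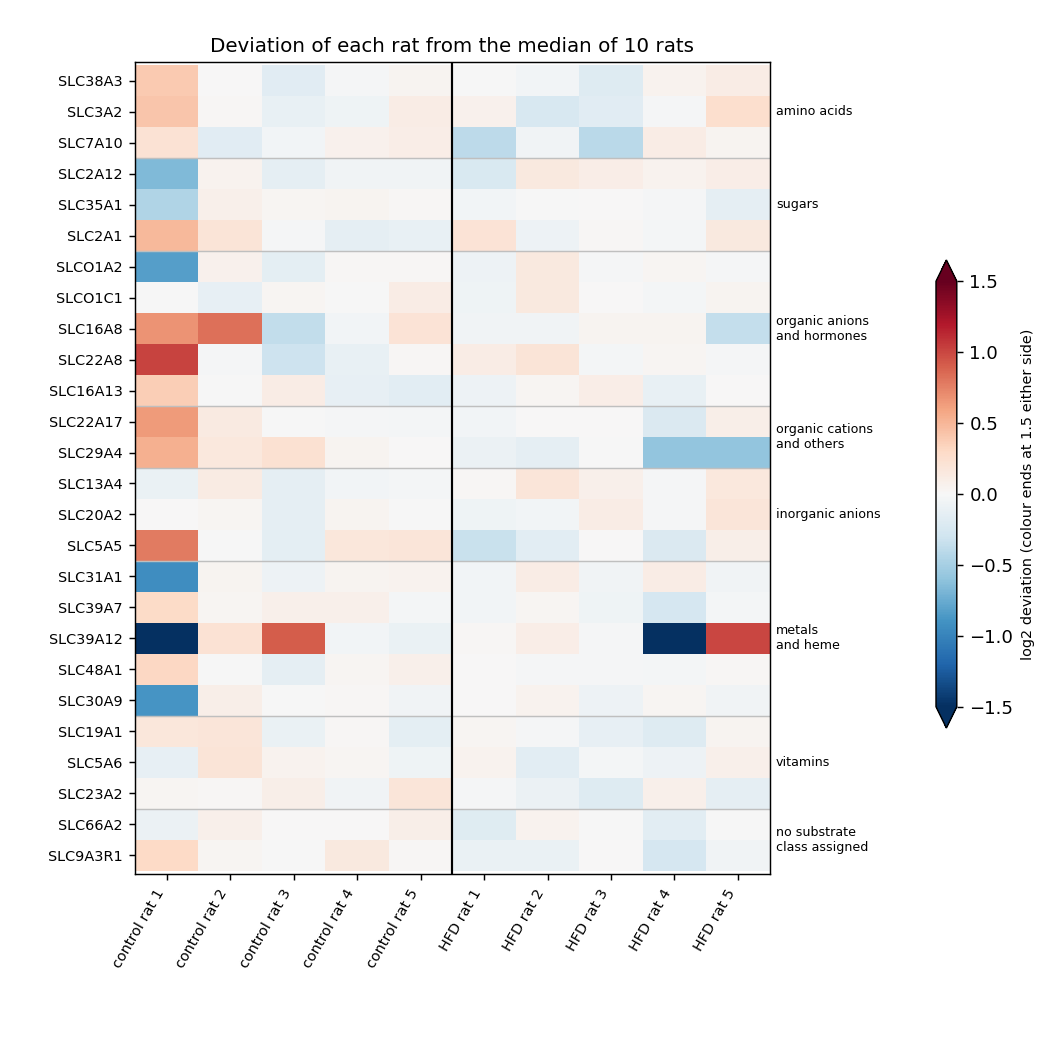
Log2 deviation of 26 of the 27 genes in each rat from the median of all 10 rats (colour scale, ending at 1.5 on either side). The column of control rat 1 holds most of the strong colours, and the row of SLC39A12 is low in control rat 1 and HFD-fed rat 4.

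Genes whose products handle the same substrates were taken from a list of 49, of which 23 could be named. Of the 23, 3 had an unadjusted p under 0.05, all lower in HFD-fed rats, and for 0 after adjustment by limma, beside the same background of 8.59%. Their median log2 difference was -0.17 with rescaled TPM, -0.066 without control rat 1 and -0.068 in TPM as deposited. The count was 2 in TPM as deposited, beside 5.11%, and 1 without HFD-fed rat 4, beside 6.54%.

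COX17, which passes copper on to cytochrome c oxidase, had 511.5, 352.0, 317.8, 351.1 and 335.3 rescaled TPM in control rats and 272.5, 343.6, 318.4, 305.4 and 281.1 in HFD-fed rats. Its groups overlapped, and its log2 difference was -0.28 with all rats and -0.16 without control rat 1. MT3, a metallothionein that binds zinc and copper, had 676.7, 363.7, 328.5, 318.9 and 407.1 rescaled TPM in control rats and 363.4, 267.8, 279.1, 231.4 and 272.3 in HFD-fed rats. HFD-fed rat 1 alone overlapped the control rats, and the log2 difference was -0.52 with all rats and -0.34 without control rat 1. PHGDH, the first enzyme of serine synthesis, had 85.7, 88.6, 80.4, 85.6 and 82.0 rescaled TPM in control rats and 55.6, 71.7, 56.7, 73.9 and 81.1 in HFD-fed rats. HFD-fed rat 5 alone overlapped the control rats, and the log2 difference was -0.33 with all rats and without control rat 1. In TPM as deposited it was -0.23, with an unadjusted p of 0.163 by limma.

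The folate receptor FOLR1, partner of SLC19A1 in folate transport, had 1214 ± 78.2 vs 1363 ± 182 rescaled TPM, and basigin (BSG), which brings monocarboxylate transporters to the membrane, 2976 ± 212 vs 3150 ± 281 (HFD vs control, SD, n = 5 each). The log2 difference of BSG was within the spread between rats, at -0.08 with all rats, -0.048 without control rat 1 and 0.023 in TPM as deposited. That of FOLR1 was -0.16 with all rats (unadjusted p = 0.126 by limma) and -0.093 without control rat 1. TTR had an unadjusted p of 0.631, GLUL, the glutamine synthetase, one of 0.337 and the glycolytic enzyme ALDOA one of 0.238 by limma. GPI, the glycolytic glucose phosphate isomerase, was singled out after its values were seen, as the one partner gene whose diets did not overlap, beside 3.42% of all genes. Its level was 324.3, 201.4, 196.9, 192.0 and 195.7 rescaled TPM in control rats and 179.7, 190.8, 191.1, 183.9 and 180.6 in HFD-fed rats, with control rat 1 far above the rest. The exact permutation test, two-sided, gave p = 0.00794, which 5 rats against 5 without overlap always give, so this p only restates the choice. The unadjusted p by limma was 0.114, and the log2 difference was -0.23 with all rats and -0.087 without control rat 1. The diets of GPI overlapped in TPM as deposited, at 180 to 204 in HFD-fed rats and 199 to 242 in control rats (exact permutation test, two-sided, p = 0.0794).

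The carriers left out by the rule give a comparison within the same family of names. Of 9 mitochondrial SLC25 carriers, 3 had an unadjusted p under 0.05, all lower in HFD-fed rats, beside 4.83% of all genes, with a median log2 difference of -0.14. In TPM as deposited 0 of the 9 had one, beside 5.11%, and the median was -0.037. Without control rat 1 the count was 3 of 9 with rescaled TPM, beside 11.7%, with a median of -0.12. In TPM as deposited without this rat it was also 3 of 9, beside 7.1%, with a median of -0.11. Of the 5 ion cotransporters, 0 had an unadjusted p under 0.05, beside 8.59%, with a median of 0.12, which was 0.032 without control rat 1 and 0.22 in TPM as deposited. The difference between these groups and the 27 genes was not tested.

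Markers of the cell types that whole choroid plexus can hold were read beside these results. Of the 10 epithelial markers, 2 had an unadjusted p under 0.05, both higher in HFD-fed rats, beside 8.59% of all genes in either direction and 3.76% higher: the serotonin receptor HTR2C, at 458 ± 41.0 vs 397 ± 21.6, and klotho (KL), at 448 ± 17.9 vs 375 ± 58.5 rescaled TPM (HFD vs control, SD, n = 5 each). The log2 difference of KL was 0.27 with all rats, 0.16 without control rat 1 and 0.38 in TPM as deposited, where its unadjusted p was 0.0686 by limma and 1 of the 10 markers had one under 0.05, beside 5.11%. Without control rat 1 there were 3 of 10, beside 11.7% of all genes, one of them the water channel AQP1 with a log2 difference of -0.18. Of 3 named markers of ciliated ependyma, 1 had an unadjusted p under 0.05, TEKT1, lower in HFD-fed rats, beside 4.83% of all genes lower. TEKT1 had 72.4 ± 5.09 vs 81.5 ± 3.27 rescaled TPM and an unadjusted p of 0.0206 by limma. In TPM as deposited its log2 difference was -0.069, with an unadjusted p of 0.518. The log2 differences of RSPH1 and CFAP126 were -0.145 and -0.231 with all rats, and -0.006 and -0.077 without control rat 1. The 3 genes summed to 354.0 to 565.4 in control rats and 317.2 to 381.6 in HFD-fed rats. The 4 blood genes summed to 3658 to 7803 rescaled TPM in control rats and 3102 to 6396 in HFD-fed rats, led by HBA-A1. The 3 stromal genes summed to 394.5 to 535.9 in control rats and 375.8 to 505.0 in HFD-fed rats, led by FMOD, and their members went apart. Decorin (DCN) had a log2 difference of 0.30 with all rats and 0.19 without control rat 1. Osteoglycin (OGN) had one of -0.73 with all rats and -1.44 without control rat 1. For OGN without this rat the unadjusted p was 0.000222 and the adjusted p 0.191 by limma. The 3 macrophage genes summed to 496.6 to 734.9 and 554.5 to 752.9, led by LYZ2. PLVAP, the one endothelial marker named, was 97.5 in control rat 1 and 51.1 to 67.2 in the other rats, and the mural markers went apart in this rat. RGS5 was 42.8 there and 101.1 to 129.3 in the others, while MYL9 was 137.1 there, the highest of all rats, and 71.4 to 126.8 in the others. Without this rat the log2 difference of MYL9 between the diets was 0.34, with an unadjusted p of 0.0276 by limma, and with all rats it was 0.16. None of the 5 neuron and glia markers was named. The part of these cell types in the values of the carriers was not tested.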

How the data were processed

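RNA sequencing covered the choroid plexus of 10 rats, 5 per diet. The authors aligned reads to Rnor_6.0 with STAR 2.7.2a and quantified them with RSEM 1.3.3, per the labels, while the study's methods name another STAR version. They deposited TPM and FPKM per gene with 2 decimals. The FPKM deposited are a constant multiple of TPM within a rat, so TPM were tested. Read numbers cannot be recovered from these TPM, and the raw reads were not used here, so depth and counting precision are unknown here.

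Names came from the study's gene tables. The study's table of every gene found transcribed in this tissue was read in a copy shortened to its most abundant genes. Members are therefore well expressed genes. The other table, which lists genes by their difference between these diets, named no member. Lower carriers, 26 of 49 partner genes with all efflux pumps, and the planned naming of other carriers were not analysed here. The members and lists were chosen with earlier results of these data known.

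TPM were rescaled by median ratios over 12037 genes. Genes with a mean of at least 1 were fitted with limma 3.58.1 (R 4.3.3, lmFit and eBayes with trend) on log2(rescaled TPM + 0.1), with diet alone in the model, and p were adjusted by Benjamini-Hochberg over the 12198 genes. Unless given as adjusted, p are unadjusted. Exact permutation tests, two-sided, used all 252 assignments of 10 rats. Each rat is 1 replicate. The values of 1 member are not reported here, although it is included in counts and medians. The fit was tested on simulated data. Values in every rat are given for the most abundant gene of each class, genes with an unadjusted p under 0.05 and the 6 next smallest p. Any other gene singled out was chosen after its values were seen. Tables, exact tests and plots were made in python 3.11.15 with pandas 2.3.3, scipy 1.17.1, numpy 2.4.6 and matplotlib 3.10.9. Alternatives are given in the closing section.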

Additional observations from a re-analysis of the deposited data

Results flagged for a closer look

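In each diet group of 5 rats, the highest or lowest value was marked where its distance to the next value, divided by the group's whole range, was above 0.71 (Dixon's ratio). Of 54 groups, 10 passed, where chance flags about 1 in 20, or 2.7. Control rat 1 was the rat in 7 of the 10.

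In control rat 1, SLC22A17 was 1947 rescaled TPM, with 1233 to 1374 in control rats 2 to 5 (ratio 0.803). SLC22A8 was 151 against 60.4 to 75.7 (ratio 0.832), and SLC5A5 was 101.9 against 53.6 to 67.0 (ratio 0.722). The same rat was low for SLC31A1, at 207.9 against 375.9 to 410.3 (ratio 0.83), and for SLCO1A2, at 127.6 against 204.1 to 235.2 (ratio 0.711). It was also low for SLC35A1, at 40.0 against 55.4 to 57.8 (ratio 0.864), and for SLC30A9, at 27.9 against 49.8 to 54.9 (ratio 0.81). Its mean effective transcript length was 789, against 874 to 968 in the other 9 rats. TTR took 39.7% of its TPM, against 32.2% to 38.2% in the other 9 rats, the highest of them HFD-fed rat 3. The part of these in the values of the carriers was not tested.

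In other rats, SLC16A8 was 74.4 rescaled TPM in HFD-fed rat 5, and 91.7 to 98.4 in HFD-fed rats 1 to 4 (ratio 0.722). SLC2A12 was 69.5 in HFD-fed rat 1, against 84.2 to 90.2 (ratio 0.711). SLC20A2 was 83.6 in control rat 3, against 91.9 to 94.3 (ratio 0.772). These 3 are about as many as chance gives.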

How the results depend on the processing

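None of the 27 genes had an adjusted p under 0.05 by limma in any of 22 alternatives, which include leaving out each rat in turn. TPM as deposited are called unscaled TPM here. Over all genes this count, 0 as reported, came to 1 with no filter on low genes, 3 with array weights and 1 with array weights on unscaled TPM.

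The number of members with an unadjusted p under 0.05, 2 as reported, came to 1 with unscaled TPM, 4 with array weights, 4 with array weights on unscaled TPM (13.3% of all genes), and 1 with unscaled TPM and no control rat 1 (7.1% of all genes). Leaving out 1 rat gave 1 to 4, beside 6.49% to 11.7% of all genes. Array weights called SLC29A4, SLC9A3R1, SLC39A7 and SLC5A5, beside 15.4% of all genes. The number higher on HFD, 0 as reported, came to 1 with upper-quartile rescaling (SLC13A4), beside 5.07% of all genes higher, and 1 with the replicate block, beside 4.3%. It was 2 with array weights on unscaled TPM (SLC13A4 and SLC22A8), beside 9.79%. Leaving out 1 rat gave 0 to 1 higher, beside 2.81% to 5.41%. The number lower, 2 as reported, came to 1 with unscaled TPM, beside 1.26% of all genes lower, and 4 with array weights, beside 8.2%. It was 1 with the replicate block, beside 5.05%, and 1 with unscaled TPM and no control rat 1, beside 3.01%. Leaving out 1 rat gave 1 to 4 lower, beside 3.68% to 6.33%. The number of partner genes, 3 as reported, came to 2 with unscaled TPM, 1 without HFD-fed rat 4 (6.54% of all genes) and 4 without control rat 3 (8.74%) or control rat 5 (9.96%). The alternatives that combine unscaled TPM with array weights or with no control rat 1 were chosen after seeing the data.

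With unscaled TPM the median log2 difference of the members was 0.041 (0.033 when array weights were added), that of the inorganic anion class 0.15, of the genes without a class -0.031, of the organic anion class 0.091 and of the vitamin class 0.029. The amino acid median was 0.087 with array weights on unscaled TPM.

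Both diets share replicate numbers 1 to 5. Deviations from the diet means correlated at -0.038 to 0.12 between rats of the same number, so no pairing was assumed. A replicate block left 2 members with an unadjusted p under 0.05, SLC29A4 (lower) and SLC2A12 (higher), beside 9.35% of all genes.

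The log2 differences that changed sign with unscaled TPM were 0.038 for SLC38A3, 0.004 for SLC3A2, 0.029 for SLC19A1, 0.041 for SLC22A8, 0.027 for SLC66A2, 0.059 for SLC5A6, 0.04 for SLC48A1, 0.057 for SLC16A13 and 0.077 for SLC2A1, and with upper-quartile rescaling 0.001 for SLC2A1. Array weights gave -0.007 for SLC31A1, 0.14 for SLC22A8, -0.46 for SLC39A12, -0.071 for SLC35A1, -0.015 for SLC30A9, 0.052 for SLC16A13 and 0.11 for SLC2A1. On unscaled TPM they gave 0.087 for SLC38A3, 0.091 for SLC3A2, 0.025 for SLC19A1, 0.21 for SLC22A8 (unadjusted p = 0.0143), 0.005 for SLC5A6, -0.57 for SLC39A12, -0.032 for SLC35A1, 0.041 for SLC48A1, 0.066 for SLC16A13 and 0.19 for SLC2A1. With unscaled TPM and no control rat 1 they were 0.031 for SLC38A3, 0.17 for SLC22A8, -0.56 for SLC39A12, -0.068 for SLC35A1, 0.011 for SLC48A1, -0.01 for SLC30A9, 0.046 for SLC16A13 and 0.084 for SLC2A1. Leaving out 1 rat gave -0.096 to 0.034 for SLC16A13, -0.17 to 0.16 for SLC22A8, -0.08 to 0.072 for SLC2A1, -0.022 to 0.22 for SLC30A9, -0.002 to 0.24 for SLC31A1, -0.08 to 0.053 for SLC35A1, -0.12 to 0.019 for SLC38A3, -0.57 to 0.73 for SLC39A12 and -0.01 to 0.051 for SLCO1C1. The cause was not tested. With 5 rats per diet, the median 95% interval of a member reached 0.23 on the log2 scale to either side, which limits how small a difference could be seen.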

Other observations

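SLC39A12 was low in control rat 1 and in HFD-fed rat 4. Of 12198 genes tested, 48 lay over 2-fold below the median of the other 8 rats in both of these rats, and 4 of them were among the 2001 identifiers with a symbol of their own. Besides SLC39A12 these were RT1-A1, LOC103690108 and OGN, which were chosen after their values were seen. RT1-A1, a classical MHC class I gene, was 9.21 rescaled TPM in control rat 1, 5.56 in HFD-fed rat 4 and 7.23 in HFD-fed rat 2, against 87.6 to 102 in the other 7 rats. LOC103690108 was 7.53, 0.309 and 6.38 in the same 3 rats, against 257 to 343 in the others. RT1-A1 belongs to a multigene family, and how reads were divided among related copies was not examined. SLC39A12 was 57.1 in HFD-fed rat 2 and so did not share its low level. OGN, which encodes the matrix protein osteoglycin, was 10.6 rescaled TPM in control rat 1 and 114 to 140 in the other control rats, and 31.2 to 79.7 in HFD-fed rats. Its log2 difference between the diets was -0.73 with all rats (unadjusted p = 0.296 by limma). Without control rat 1 it was -1.44 (unadjusted p = 0.000222 and adjusted p = 0.191 by limma). No explanation was tested for these values.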
